A study of Homo sapiens with 6 samples.

Results

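Chromosome 20 is a mid-sized human chromosome whose 2 arms meet at the centromere. Its binding of 2 nuclear enzymes was followed here through the first 30 min of a progestin response in breast cancer cells. The chromosome was taken as its 10 kb windows with a mean of at least 10 reads over the 6 libraries, and the windows between the arms were left out. That gave 5878 of the 278395 windows that reach this mean on all chromosomes: 2551 on the short arm (chr20:60001-25600000, build hg19) and 3327 on the long arm (chr20:29420001-62970000). The last 287 windows of the long arm (chr20:60000001-62970000) are called the last segment, and the other 3040 the rest of the long arm. Another 61 windows around the centromere passed the mean but were left out. Just 4 windows of the arms held reads without reaching the mean. The lowest windows inside had means of 16.7, 18.5 and 19 reads, and the highest ones outside had 6.83, 4.50 and 3.67.

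All libraries were chromatin immunoprecipitations, followed by sequencing, from T47D-MTVL cells. T47D is a progesterone receptor-positive human breast cancer line, and the MTVL derivative carries an integrated reporter driven by the hormone-responsive promoter of mouse mammary tumour virus. Every culture spent time in charcoal-treated serum and then without serum before 10 nM of the synthetic progestin R5020 was added, so the cells at 0 min were hormone-deprived and serum-starved. DNA was recovered with an antibody to CDK2 or to PARP1 at 0, 5 and 30 min, 1 library for each antibody and time. Nothing here measures the spread between cultures, every difference is one between 2 libraries, and no library without antibody or of input DNA was analysed here.

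CDK2 is a cyclin-dependent kinase best known for driving entry into and passage through DNA synthesis. PARP1 is an abundant nuclear enzyme that binds DNA breaks and chromatin and builds poly(ADP-ribose) chains on itself, on histones and on other proteins. In the progestin response of breast cancer cells the kinase is known to phosphorylate and activate PARP1 within minutes, and ADP-ribosylation then helps to displace linker histone and open chromatin. Chromosome 20 is of interest in breast tumours because its long arm is often present in extra copies. The tip of that arm is one of the gene-rich, GC-rich chromosome ends, and genes such as CDH4 (a cadherin), TAF4 (a subunit of the general transcription factor TFIID), LAMA5 (a laminin chain), EEF1A2 (a translation elongation factor), RTEL1 (a telomere helicase) and SOX18 (a vascular transcription factor) lie there.

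In the order of genes in RefSeq's GRCh38.p14 annotation, 180 protein-coding genes of chromosome 20 precede the centromere and 357 follow it. Against the compared windows this makes 70.6 genes per 1000 windows on the short arm and 107 on the long arm. From CDH4 to the chromosome's end there were 65 genes, or 226 per 1000 windows of the last segment. CDH4 was taken to mark the start of the last segment from general knowledge of the locus, since that annotation is of another build than the windows. For the same reason single windows were not assigned to genes, no sequence is given, and the base composition of the windows was not analysed here. Promoter sequences were at hand for 43 of those 65 genes, 133 of the 180 short-arm genes and 15843 of 20056 protein-coding genes. Their median GC content was 74.3%, 63.0% and 62.7% in that order. Genes without a sequence are left out, and any link of GC content to the ratios below was not tested.

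The libraries held between 40097131 and 63448449 reads. Local scatter set them apart: the variance between neighbouring windows was 6.11, 11.4 and 8.62 times the Poisson value for PARP1 at 0, 5 and 30 min, and 7.43, 52.2 and 24.0 times for CDK2. The library of CDK2 at 5 min stood apart most. On chromosome 20 it held 58 windows with 0 reads, 43 of them on the short arm, against 3 for CDK2 at 30 min and 0 in the other 4 libraries. This is 0.987% of the chromosome's windows, beside 1.43% of all windows. Interval widths below therefore come from counts divided by this factor and are called widened. They cover counting error and local scatter only, and a ratio was called where the widened 95% interval left out 1. What the scatter has to do with the results was not tested.

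The 2 arms differed in level before any hormone. The median short-arm window stood at 0.841 of the median window of all chromosomes for PARP1 at 0 min, 0.844 at 5 min and 0.841 at 30 min. For CDK2 it stood at 0.812, 0.762 and 0.854. The long arm was higher in each of the 6 libraries, at 1.12, 1.21 and 1.18 for PARP1 and 1.09, 1.05 and 1.24 for CDK2. The step from the short to the long arm was 1.33-fold, 1.43-fold and 1.41-fold for PARP1, and 1.34-fold, 1.38-fold and 1.45-fold for CDK2. With no input library, more DNA copies of the long arm, better mapping there and more bound protein cannot be told apart.

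**Figure D1:**
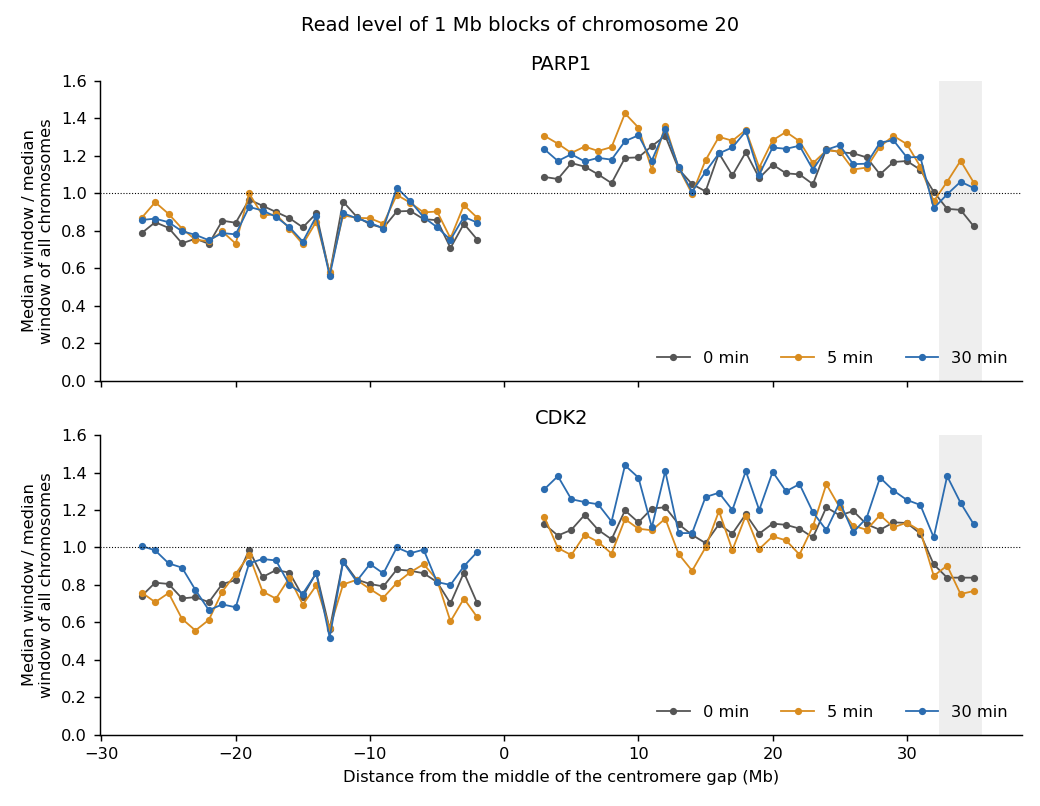
Median read count of the 10 kb windows in each 1 Mb block of chromosome 20, divided by the median window of all chromosomes, for PARP1 (top) and CDK2 (bottom) at 0, 5 and 30 min, 1 library each. The horizontal axis is the distance in Mb from the middle of the gap between the arms, with the short arm at negative values; the grey band is the last segment, where CDK2 at 30 min stands at 1.28 and CDK2 at 0 min at 0.839 over the segment as a whole.

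The last segment changed its place within the long arm. At 0 min its median window was lower than that of the rest of the arm, 0.890 against 1.14 for PARP1 and 0.839 against 1.11 for CDK2, in units of the median window of all chromosomes. PARP1 at 5 min gave 1.08 against 1.22, and at 30 min 1.03 against 1.20. CDK2 at 5 min gave 0.805 against 1.06, close to its place at 0 min. CDK2 at 30 min gave 1.28 against 1.24, so that the end of the arm had drawn level with the rest of it in that library alone. As a quotient, the last segment stood at 0.783, 0.881 and 0.859 of the rest of the arm for PARP1 and at 0.753, 0.756 and 1.03 for CDK2.

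PARP1 reads on chromosome 20 rose after 5 min, most at the end of the long arm. Of the PARP1 reads, 46886, 60902 and 62219 fell in the last segment at the 3 times, which are 0.0841%, 0.104% and 0.0981% of each library. Both hormone libraries were above the library at 0 min. Scaled by library totals, the segment was 1.24-fold higher at 5 min (widened interval 1.20 to 1.28) and 1.17-fold higher at 30 min (1.13 to 1.20). The rest of the long arm was 1.09-fold higher at 5 min (1.08 to 1.10) and 1.06-fold higher at 30 min (1.05 to 1.07). The short arm was 1.03-fold higher at 5 min (1.02 to 1.04); at 30 min its ratio was 1.01 (0.999 to 1.02), not called. From 5 to 30 min, PARP1 fell to 0.942 in the last segment (0.909 to 0.976), to 0.969 in the rest of the long arm (0.960 to 0.979) and to 0.982 on the short arm (0.969 to 0.996).

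CDK2 followed another course. In the last segment it held 36563, 45493 and 47586 reads at 0, 5 and 30 min, or 0.0811%, 0.0787% and 0.119% of each library. The library at 30 min was the one above the rest. Its ratio to 0 min was 1.46 (widened interval 1.39 to 1.54), the highest among the segments and times compared with 0 min here. The rest of the long arm was 1.13-fold higher at 30 min (1.11 to 1.15) and the short arm 1.07-fold higher (1.05 to 1.09). At 5 min the ratios were 0.967 on the short arm (0.943 to 0.991), 0.973 in the rest of the long arm (0.954 to 0.992) and 0.971 in the last segment (0.903 to 1.04). The short arm and the long arm as a whole (0.973, 0.955 to 0.991) turned above 1 under each of 3 other scalings. No direction is therefore given for these ratios of CDK2 at 5 min. The comparison with all other chromosomes, given below, does not depend on scaling. Between 5 and 30 min CDK2 rose 1.51-fold in the last segment (1.39 to 1.63), 1.16-fold in the rest of the long arm (1.13 to 1.19) and 1.10-fold on the short arm (1.07 to 1.14).

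**Figure D2:**
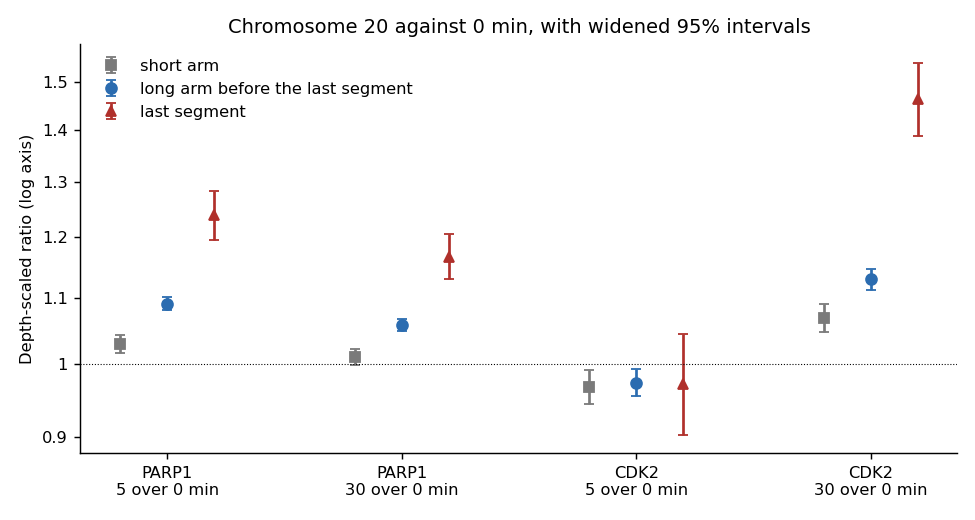
Reads of the short arm (grey squares), the rest of the long arm (blue circles) and the last segment (red triangles) at 5 or 30 min over 0 min, scaled by library totals, on a log axis. Bars are widened 95% intervals, with 1 library per point of a ratio. The last segment is highest for PARP1 at 5 min (1.24), PARP1 at 30 min (1.17) and CDK2 at 30 min (1.46), while the 3 CDK2 values at 5 min lie between 0.967 and 0.973.

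A ratio of 2 ratios from the same pair of libraries does not depend on how libraries are scaled. It was used to compare the parts of the chromosome with each other. The parts were chosen with earlier results of these data known, so the intervals describe these libraries and are no independent test. The long arm gained over the short arm by 1.07-fold for PARP1 at 5 min (widened interval 1.05 to 1.09), by 1.05-fold for PARP1 at 30 min (1.04 to 1.07) and by 1.08-fold for CDK2 at 30 min (1.05 to 1.10). For CDK2 at 5 min the value was 1.01 (0.975 to 1.04), not called. The last segment gained over the rest of the long arm by 1.14-fold (1.10 to 1.18), 1.10-fold (1.07 to 1.14) and 1.30-fold (1.23 to 1.37) in the same 3 comparisons. For CDK2 at 5 min that value was 0.998 (0.926 to 1.08). Between these 2 libraries, the interval at 5 min lies below the 1.30 of CDK2 at 30 min and includes a gain or loss of a few percent. It covers counting error and local scatter only, so it cannot exclude a gain in the cells at 5 min.

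The antibodies were close to each other at 0 min. CDK2 over PARP1 was 0.996 on the short arm (widened interval 0.984 to 1.01), 0.997 in the rest of the long arm (0.987 to 1.01) and 0.964 in the last segment (0.930 to 0.999), the last being called. At 5 min the last segment was at 0.756 (0.703 to 0.812) and at 30 min at 1.21 (1.15 to 1.27). The tip of chromosome 20 thus held relatively fewer CDK2 than PARP1 reads at 5 min and relatively more at 30 min, when scaled by library totals.

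Among 23 chromosomes, chromosome 20 ranked 5th from the highest for PARP1 at 5 min, PARP1 at 30 min and CDK2 at 30 min, and 21st for CDK2 at 5 min. Its arms gained over all other chromosomes by 1.08-fold (widened interval 1.07 to 1.08), 1.05-fold (1.04 to 1.05) and 1.12-fold (1.11 to 1.14) in the first 3. For CDK2 at 5 min the arms were at 0.970 of all other chromosomes (0.956 to 0.985), called lower. In the first 3 comparisons the arms were not told apart from chromosome 16. The ratios of ratios were 0.994 (0.984 to 1.00), 0.995 (0.986 to 1.00) and 0.994 (0.978 to 1.01). Against chromosome 17 the values were 0.985 (0.976 to 0.995), 0.986 (0.978 to 0.995) and 0.998 (0.983 to 1.01), the 2 for PARP1 being called lower. The arms of chromosome 20 gained less than chromosome 19, at 0.938 (0.927 to 0.950), 0.959 (0.948 to 0.970) and 0.930 (0.913 to 0.948), and less than chromosome 22, at 0.941 (0.928 to 0.954), 0.959 (0.946 to 0.971) and 0.904 (0.884 to 0.923). By protein-coding genes per window, chromosome 20 ranked 7th of 23.

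Along the chromosome the change was uneven, and broad. The arms hold 59 blocks of 1 Mb with at least 50 windows. For PARP1 at 5 min the widened interval lay above 1 in 32 blocks (54.2%, against 28.8% of the 2811 blocks of all chromosomes) and below 1 in 4 (6.78%, against 29.7%). At 30 min PARP1 had 28 blocks above (47.5%, against 24.8%) and 5 below (8.47%, against 25.0%). CDK2 at 30 min had 38 above (64.4%, against 24.9%) and 1 below (1.69%, against 27.7%). With CDK2 at 5 min there were 1 above (1.69%, against 4.34%) and 4 below (6.78%, against 4.13%). The median block was at 1.08, 1.05, 0.974 and 1.12 for PARP1 at 5 min, PARP1 at 30 min, CDK2 at 5 min and CDK2 at 30 min, against 0.997, 1.00, 0.996 and 0.987 over all chromosomes.

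**Figure D3:**
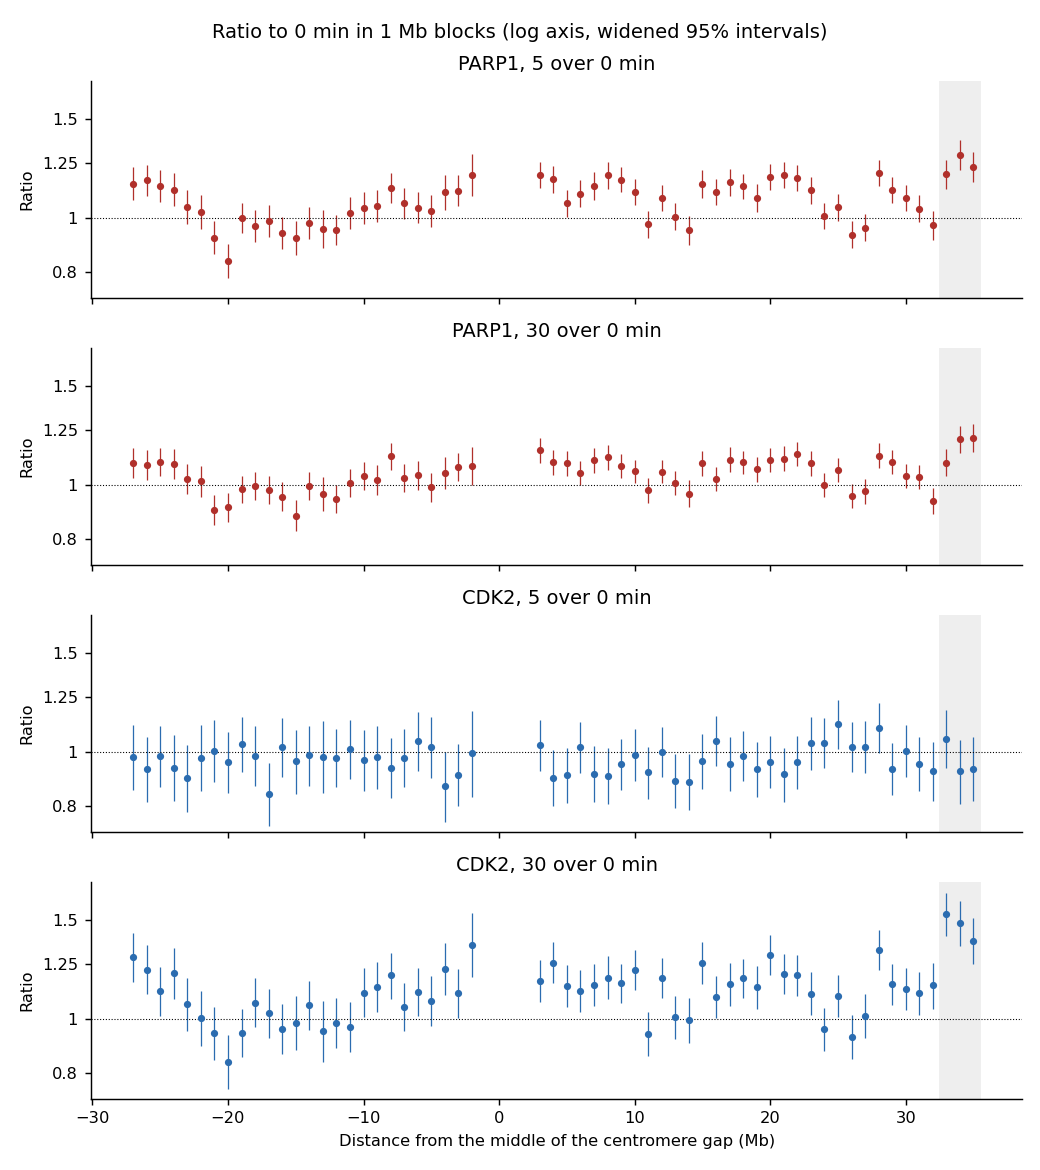
Ratio to 0 min, scaled by library totals, in 59 blocks of 1 Mb of chromosome 20, on a log axis, for PARP1 (red) and CDK2 (blue). The horizontal axis is the distance in Mb from the middle of the gap between the arms, bars are widened 95% intervals and the grey band is the last segment. PARP1 at 5 and 30 min and CDK2 at 30 min dip within the short arm (lowest blocks 0.838, 0.881 and 0.837) and peak in the grey band (highest 1.29, 1.21 and 1.53).

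The highest blocks lay in the last segment. Blocks named here and below were picked by their ratios, so their intervals describe these libraries and are no test. For PARP1 at 5 min, chr20:61000001-62000000 held 15449 reads before hormone and 20961 after. Its scaled ratio was 1.29 (1.22 to 1.37, widened), 18th from the highest among all 2811 blocks. Next came chr20:62000001-62970000 at 1.23 (1.15 to 1.31) and chr20:55000001-56000000 at 1.20 (1.14 to 1.27). For PARP1 at 30 min the same 2 end blocks were at 1.20 (1.14 to 1.27) and 1.21 (1.14 to 1.28), which placed them 6th and 5th of all blocks. The first full block of the long arm, chr20:30000001-31000000, came next on the chromosome at 1.15 (1.09 to 1.21).

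For CDK2 at 30 min the 3 blocks of the last segment were the 3 highest of the chromosome. Block chr20:60000001-61000000 held 12807 reads at 0 min and 17451 at 30 min, in a library with fewer reads in all. Its ratio was 1.53 (widened interval 1.40 to 1.67), the 3rd highest of 2811 blocks. The following block was at 1.48 (1.35 to 1.62) and 13th, and the end block at 1.37 (1.25 to 1.51) and 57th. For CDK2 at 5 min the highest block was chr20:52000001-53000000 at 1.12 (1.01 to 1.24), then chr20:55000001-56000000 at 1.10 (0.994 to 1.22) and chr20:60000001-61000000 at 1.05 (0.934 to 1.19). Only the first of these 3 had a widened interval above 1. That is 1.69% of the chromosome's blocks, below the 4.34% of the blocks of all chromosomes.

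The lowest PARP1 blocks lay on the short arm. Block chr20:7000001-8000000 held 15494 reads before hormone and 13623 at 5 min. Its scaled ratio was 0.838 (0.782 to 0.898, widened). Blocks chr20:12000001-13000000 and chr20:6000001-7000000 followed at 0.920 (0.858 to 0.985) and 0.921 (0.861 to 0.985). The same 3 blocks were the lowest at 30 min, at 0.911 (0.857 to 0.967), 0.881 (0.828 to 0.938) and 0.901 (0.848 to 0.957) in that order; the 2 comparisons share the library at 0 min. CDK2 at 30 min had its lowest value in the first of them, with 12635 and 9400 reads and a ratio of 0.837 (0.748 to 0.935). Its next lowest, chr20:53000001-54000000 at 0.929 (0.849 to 1.02) and chr20:38000001-39000000 at 0.939 (0.858 to 1.03), were not called. CDK2 at 5 min was lowest in chr20:10000001-11000000 at 0.840 (0.737 to 0.955), chr20:23000001-24000000 at 0.867 (0.749 to 0.9996) and chr20:41000001-42000000 at 0.884 (0.786 to 0.991).

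These low PARP1 blocks belong to a continuous stretch, chr20:6000001-16000000. It and the stretches that follow were chosen after their values were seen, as runs of blocks on 1 side of 1 for PARP1 at 5 min, so their ratios are given as a description, with no interval. All 10 blocks of the low stretch were below 1 for PARP1 at both hormone times, which share the library at 0 min. As a whole it stood at 0.947 at 5 min and 0.951 at 30 min for PARP1. For CDK2 at 30 min it stood at 0.975, with its blocks from 9000001, 10000001 and 13000001 above 1, at 1.07, 1.02 and 1.06. CDK2 at 5 min was at 0.973 there, against 0.950 in chr20:1-6000000 and 0.970 in chr20:16000001-26000000, so its value was not lower than beside the stretch. The stretch was chosen on PARP1, and whether CDK2 had a small dip there was not tested. The tip of the short arm, chr20:1-6000000, was at 1.11 for PARP1 at 5 min, 1.07 at 30 min and 1.15 for CDK2 at 30 min. From the low stretch to the end of the short arm (chr20:16000001-26000000) the values were 1.07, 1.04 and 1.12.

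On the long arm before the last segment, 5 blocks were below 1 for PARP1 at 5 min, in 4 separate places: those from 38000001, 41000001, 53000001, 54000001 and 59000001, with ratios between 0.933 and 0.974. Between them lay runs at 1.14 (chr20:30000001-38000000), 1.12 (chr20:42000001-53000000) and 1.11 (chr20:55000001-59000000). CDK2 at 30 min stood at 1.17, 1.15 and 1.18 in the same 3 runs.

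PARP1 at 5 min and CDK2 at 30 min, which share no library, had a like profile over the 59 blocks, with a Pearson correlation of 0.886 and a Spearman correlation of 0.896. Both were on the same side of 1 in 52 blocks. Within the short arm the Pearson correlation was 0.906 over 26 blocks, and within the rest of the long arm 0.839 over 30, so the likeness did not come only from the step between arms or from the last segment. PARP1 at 30 min against CDK2 at 30 min gave 0.818. Against CDK2 at 5 min, PARP1 at 5 min gave -0.063 and PARP1 at 30 min -0.084, where the blocks of all chromosomes gave -0.384 and -0.343. Blocks are neighbours within the same libraries and share base composition and mapping, so these values describe the libraries and carry no p. Over all chromosomes PARP1 at 5 min and CDK2 at 30 min gave 0.907, so the likeness was not particular to chromosome 20.

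The likeness was one of broad stretches. The Spearman correlation of PARP1 at 5 min with CDK2 at 30 min was 0.151 over the 5878 single windows, 0.249 in 20 kb bins, 0.418 in 50 kb bins and 0.554 in 100 kb bins. It was 0.717 in 250 kb bins, 0.828 in 500 kb bins and 0.896 in blocks. With CDK2 at 5 min it stayed between -0.116 and -0.030 at every bin width. Single windows carry more counting error than wide bins, and how much of the rise with width comes from that was not tested.

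**Figure D4:**
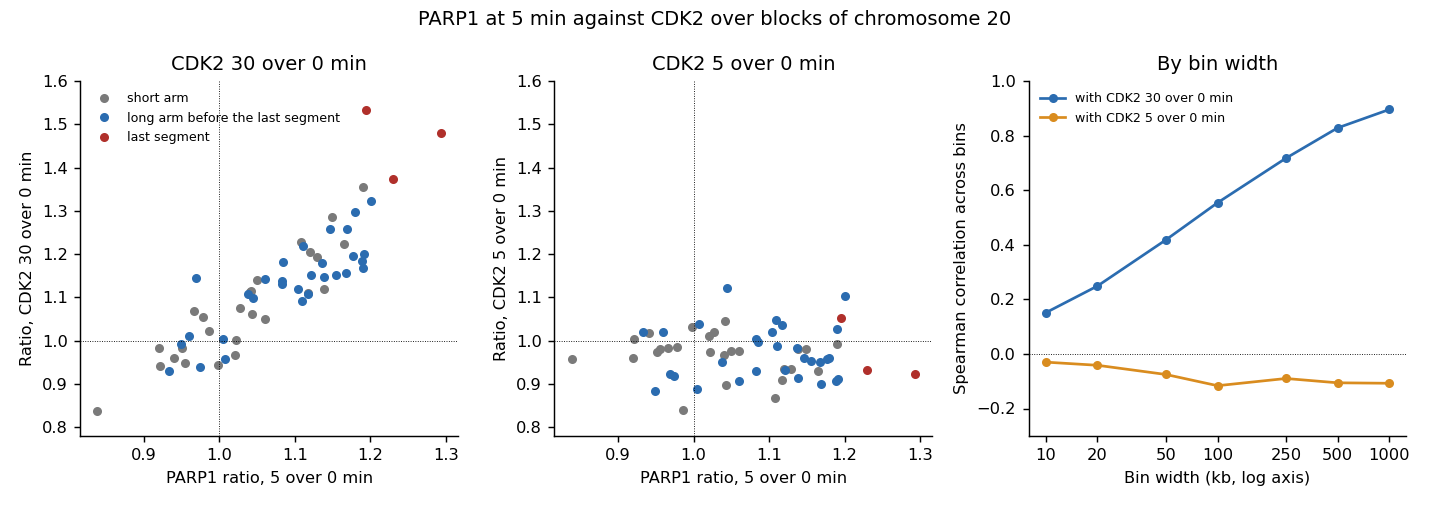
Left and middle, ratio to 0 min of PARP1 at 5 min (horizontal) against CDK2 at 30 min (left) or CDK2 at 5 min (middle) in 59 blocks of 1 Mb, coloured by part of chromosome 20, on linear axes. Right, the Spearman correlation between the same pairs by bin width in kb (log axis): it climbs from 0.151 to 0.896 with CDK2 at 30 min and is between -0.116 and -0.030 with CDK2 at 5 min.

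Within the last segment the rise was spread out. In bins of 100 kb, 29 of 30 were above 1 for PARP1 at 5 min, 20 of them with a widened interval above 1, where 9.23% of the bins of all chromosomes had one. PARP1 at 30 min had 27 above 1, 10 of them called against a background of 5.55%. All 30 were above 1 for CDK2 at 30 min, 20 of them called against a background of 8.01%, from 1.09 in the 5 windows at the very end to 1.75 in chr20:60700001-60800000. In time order that bin held 1335, 1424 and 2077 CDK2 reads and 1714, 2388 and 2306 PARP1 reads. For CDK2 at 5 min there were 13 bins above 1 and 0 called higher, against a background of 1.64%. The bin highest for PARP1 at 5 min was another one, chr20:61900001-62000000, with 1478, 2267 and 2012 PARP1 reads. Its ratio at 5 min was 1.46 (1.21 to 1.77), with an interval that is a description, since the bin was picked by that ratio.

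Taken window by window, 226 of the 287 windows of the last segment had a ratio above 1 for PARP1 at 5 min, or 78.7%, against 48.6% of all windows. For CDK2 at 30 min it was 222, or 77.4%, against 46.7%. PARP1 at 30 min had 217, or 75.6%, against 49.3%, and CDK2 at 5 min had 123, or 42.9%, against 46.5%. The middle window of the segment had a ratio of 1.24 for PARP1 at 5 min and 1.42 for CDK2 at 30 min, beside 1.24 and 1.46 for the sums.

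A single window was called where an exact binomial test on its 2 counts, with Benjamini-Hochberg adjustment over all 278395 windows, gave an adjusted value under 0.05 and its ratio was at least 2 or at most 0.5. Such a call compares 2 libraries, and it takes reads as independent and leaves the local scatter out. On chromosome 20, 52 windows were called higher for PARP1 at 5 min against a background of 0.893% of all windows, and 60 lower against 1.73%. These are 0.885% and 1.02% of the chromosome's windows. At 30 min PARP1 had 19 higher against a background of 0.406% and 14 lower against 0.587%, or 0.323% and 0.238%. CDK2 at 5 min had 311 higher against 6.21% and 1052 lower against 16.2%, or 5.29% and 17.9%. CDK2 at 30 min had 479 higher against 5.46% and 465 lower against 11.5%, or 8.15% and 7.91%. Most of these shares lie near or below the background. Higher calls for CDK2 at 30 min stood above it, and lower calls stood below it in all but CDK2 at 5 min.

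The last segment had 59 windows called higher for CDK2 at 30 min, or 20.6% of its windows against 5.46% of all windows. It had 7 called lower, or 2.44% against 11.5%. PARP1 at 5 min had 10 higher, or 3.48% against 0.893%, and 0 lower against 1.73%. PARP1 at 30 min had 2 higher and 1 lower, or 0.697% and 0.348%, against 0.406% and 0.587% of all windows. CDK2 at 5 min had 14 higher and 51 lower, or 4.88% and 17.8%, both near the background. When CDK2 and PARP1 libraries were scaled on the 20% of windows with the lowest mean instead of by totals, the higher share of the chromosome's calls went from 46.4% to 64.2% for PARP1 at 5 min, from 22.8% to 58.7% for CDK2 at 5 min and from 50.7% to 64.1% for CDK2 at 30 min.

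**Figure D5:**
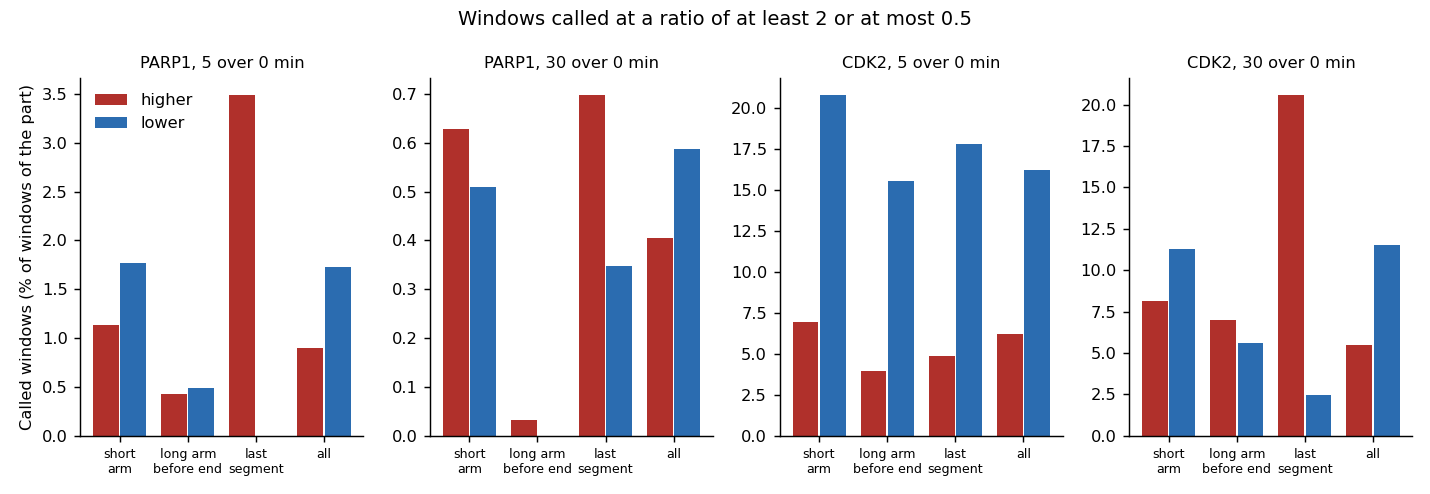
Share of windows called higher (red) and lower (blue) than at 0 min in the short arm, the long arm before its last segment, the last segment and all compared windows, 1 pair of libraries per panel; the vertical scale differs between panels. The last segment stands out in CDK2 at 30 min, with 20.6% called higher against 5.46% of all windows.

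In the other 5 comparisons, calls in either direction were counted. PARP1 at 30 against 5 min had 90 on chromosome 20 against a background of 2.10%, and CDK2 at 30 against 5 min had 2014 against 33.5%. CDK2 against PARP1 had 45 at 0 min against 1.17%, 1528 at 5 min against 25.0% and 745 at 30 min against 14.2%. These are 1.53%, 34.3%, 0.766%, 26.0% and 12.7% of the chromosome's windows, near or below the background when both directions are pooled. Split by direction, CDK2 at 30 against 5 min had 23.8% higher against 18.4% of all windows, and 10.4% lower against 15.1%. CDK2 against PARP1 at 5 min had 5.26% higher against 8.02%, and 20.7% lower, above the share of all windows. At 30 min it had 4.49% higher against 3.84%, and 8.18% lower against 10.3%. The remaining comparisons were near or below the background in both directions. After the counts were divided by the scatter of each comparison, no window of chromosome 20 was called in any of the 9 comparisons. Over all windows that count was between 0 and 12. Windows singled out below therefore describe these libraries and are not called beyond their scatter. Their widened intervals are not adjusted for the number of windows or for the picking of extremes. Such an interval that leaves out 1 is therefore no call.

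For PARP1 at 5 min the higher window with the bound farthest from 1 was chr20:55840001-55850000, with 129, 345 and 266 PARP1 reads in time order, a ratio of 2.55 (interval 2.08 to 3.15, widened 1.503 to 4.49). CDK2 had 162, 110 and 320 reads in that window, highest at 30 min and lowest at 5 min. At chr20:5450001-5460000 PARP1 had 37, 115 and 81 reads and CDK2 67, 42 and 98. The last segment had the same order of libraries, PARP1 lowest at 0 min and CDK2 highest at 30 min. Of the lower windows, chr20:14440001-14450000 had 30, 3 and 30 PARP1 reads and 15, 62 and 1 CDK2 reads. The widened interval of its PARP1 ratio at 5 min included 1. PARP1 was lowest where CDK2 was highest, but these counts are small and the window was picked by its PARP1 ratio. No opposite change of the 2 antibodies is therefore read from it.

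For PARP1 at 30 min, a window of the last segment, chr20:61090001-61100000, held 18, 38 and 71 PARP1 reads and 20, 14 and 30 CDK2 reads, a PARP1 ratio of 3.47 (interval 2.04 to 6.18, widened 1.08 to 15.0). Window chr20:9280001-9290000, inside the low stretch of the short arm, held 122, 220 and 343 PARP1 reads, a ratio of 2.47 (2.00 to 3.06, widened 1.56 to 4.04). Its CDK2 counts were 124, 546 and 126, high in the library at 5 min alone. The 3 lower windows with the bound farthest from 1, from 14400001, 15770001 and 20300001, were on the short arm. They had ratios between 0.347 and 0.454.

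For CDK2 at 5 min the extreme windows were far higher or lower in that library than in both other CDK2 libraries. Window chr20:51160001-51170000 held 48, 329 and 20 CDK2 reads and 68, 123 and 97 PARP1 reads, a ratio of 5.35 at 5 min (interval 3.94 to 7.40, widened 1.20 to 50.3). The 3 lower windows with the bound farthest from 1 had 0 reads in that library. The first, chr20:51350001-51360000, held 187, 0 and 189 CDK2 reads, and the widened interval of its ratio at 5 min reached up to 0.486. Its PARP1 counts were 262, 188 and 221, so all other libraries held reads there.

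For CDK2 at 30 min the 3 higher windows with the bound farthest from 1 were on the short arm. Window chr20:3680001-3690000 held 43, 195 and 183 CDK2 reads, a ratio of 4.79 at 30 min (interval 3.42 to 6.84, widened 1.31 to 26.4), and 154, 147 and 145 PARP1 reads. Window chr20:3060001-3070000 held 53, 37 and 218 CDK2 reads and chr20:16410001-16420000 86, 240 and 309. Of the lower windows, chr20:5720001-5730000 held 122, 257 and 0 CDK2 reads, and the widened interval of its ratio at 30 min reached up to 0.614. Window chr20:21720001-21730000 held 82, 89 and 1, a ratio of 0.0137 (0.000343 to 0.0786) whose widened interval reached up to 1.07 and so included 1. The choice was by interval bound, with at most 1 window per 100 kb, so these need not be the windows of most extreme ratio.

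Among the windows of the 2 arms, those with the highest mean lay beside the centromere on the long arm. Windows left out between the arms reached higher counts in some libraries, up to 784 reads for PARP1 at 30 min against 608 in the arms. The 3 from 29630001 to 29660000 had means between 500.7 and 575.5 reads, and the 2 from 29810001 to 29830000 had 385.7 and 395.0. In the first of them PARP1 held 628, 535 and 552 reads and CDK2 527, 885 and 326. Their level was between 1.38 and 4.78 times the median window of all chromosomes, in every library and with both antibodies.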

How the data were processed

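Chromatin immunoprecipitation libraries of CDK2 and PARP1 from T47D-MTVL cells at 0, 5 and 30 min of R5020 were analysed, 1 library per antibody and time (6 in all). The deposited table holds raw counts of reads per 10 kb window that the authors made. Bowtie 1.0.0 and build hg19 (GRCh37) are named in the submitters' processing notes; read filters and the treatment of duplicates are not given in the sources used here. Window starts count from 0 in the table and are printed from 1.

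Windows with a mean of at least 10 were compared, scaled by library totals, with Python 3.11.15, numpy 2.4.6, scipy 1.17.1 and pandas 2.3.3. Ratios of summed counts have exact conditional binomial 95% intervals. Widened intervals divide each count by its library's scatter between neighbouring windows; for calls after scatter, a comparison's scatter around its local ratio (20 windows on each side) was used. Scaling by edgeR 4.0.16 (TMM), by DESeq2 1.42.0 (size factors) and on the lowest windows, count minimums, fold limits, thinning to the smallest total and leaving out the highest windows were tried. Calling was tested on simulated counts with Poisson scatter only, with 100 windows changed 3-fold each way. It found 100% of raised and 96% to 100% of lowered windows, with at most 2 false calls per comparison. The real libraries scatter 6.11 to 52.2 times the Poisson value, so this does not show how calls behave on them.

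The windows and blocks named are, for each comparison with 0 min, drawn from the 3 called windows in each direction with the interval bound farthest from 1 (at most 1 per 100 kb), the 5 windows of highest mean, and the 3 highest and lowest blocks. The chromosome, its parts and these rules were chosen with earlier results of these data known. Windows were not matched to genes, since the gene table is of another build.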

Additional observations from a re-analysis of the deposited data

Results flagged for a closer look

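The change of CDK2 differed from the change of PARP1 on chromosome 20 at both hormone times, by the ratio of their 2 ratios to 0 min with widened 95% intervals. At 5 min that value was 0.940 on the short arm (0.914 to 0.967), 0.884 on the long arm (0.866 to 0.903) and 0.784 in the last segment (0.724 to 0.850). At 30 min it was 1.06 on the short arm (1.03 to 1.08), 1.08 on the long arm (1.06 to 1.10) and 1.26 in the last segment (1.18 to 1.33). The values at 5 min depend on scaling: on the windows with the lowest mean the short arm turned to 1.18 and the long arm to 1.11, and the last segment was at 0.984, not called. With TMM and DESeq2 factors the short arm was at 0.973 and 0.977, neither called. Each value rests on 4 libraries, and CDK2 at 5 min has 52.2 times the Poisson scatter; its part in these values was not tested.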

How the results depend on the processing

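Of 194 alternative values for 58 results, 155 counted as the same. Another 24 counts or ratios moved, 9 turned direction, 3 came to be called and 3 lost their call. Ratios with an interval counted as the same where they kept their call status and, where called, their direction. A count did so within 1.5-fold of its main value. A ratio without an interval of its own did so inside the main interval. For the ratio of long to short arm, the last segment against the rest of the long arm, and the last segment in PARP1 at both times and CDK2 at 30 min, no alternative changed the call. CDK2 at 5 min turned with scaling: on the short arm from 0.967 to 1.01 (TMM), 1.01 (DESeq2) and 1.26 (lowest windows), on the long arm from 0.973 to 1.02, 1.02 and 1.26, and in the last segment to 1.26 with the lowest windows. That last scaling moved all windows by 0.377 (log2) in this comparison, by 0.133 for CDK2 at 30 min and by at most 0.050 for PARP1. The ratio of CDK2 to PARP1 change at 5 min turned to 1.18 and 1.11 on the short and long arm. PARP1 at 30 min on the short arm came to be called, at 1.02, 1.01 and 1.04 under the 3 scalings. As the median over windows in place of sums, CDK2 stood at 0.920 and 0.935 at 5 min, and 1.04 and 1.13 at 30 min, on the short and long arm. Called windows at fold limits of 1.5 and 3 numbered 950 and 9 for PARP1 at 5 min (112 at 2), where 15.8% and 0.305% of all windows were called. They were 506 and 1 for PARP1 at 30 min (33; 9.06% and 0.109% of all), 2765 and 537 for CDK2 at 5 min (1363; 45.2% and 9.11%), and 2409 and 218 for CDK2 at 30 min (944; 39.7% and 5.08%). The cause of the turns was not tested. A count minimum without CDK2 at 5 min was chosen after seeing the data. No paired analysis was possible because each antibody and time has 1 library and the labels give no replicate numbers. After division by the scatter of each comparison, 0 windows of the chromosome were called at these depths; without that division 112, 33, 1363 and 944 were.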
